A study of Caenorhabditis elegans with 4 samples.

Results

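ABC transporters are membrane pumps and related soluble proteins that share an ATP-binding cassette, the domain that binds and splits ATP. The genes described here are the rows of the deposited *Caenorhabditis elegans* count table whose locus tag carries a symbol beginning with *pgp-*, *mrp-*, *haf-*, *abt-*, *abcf-*, *wht-*, *pmp-*, *cft-* or *hmt-*. That rule found 56 genes among 21895 rows, 52 protein-coding genes and 4 pseudogenes (*abt-3*, *abt-6*, *pgp-15* and *wht-9*). The counts by symbol were 15 *pgp-*, 8 *mrp-*, 1 *cft-*, 8 *haf-*, 1 *hmt-*, 5 *pmp-*, 9 *wht-*, 6 *abt-* and 3 *abcf-* genes.

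RNA was sequenced from whole worms of the wild-type Bristol N2 strain in 4 libraries. The treated group was shaken for 24 h in M9 buffer with Cyclo(Pro-Tyr), a ring-shaped dipeptide of proline and tyrosine, at 0.25 mg/mL (2 libraries). The controls were shaken in the same way with DMSO, the solvent (2 libraries). The series text gives the starting material only as embryos or L1 larvae, and nothing says whether the libraries of a group came from separate cultures, so p-values measure the spread between these libraries, which may be technical. The comparison asks which genes respond to the compound.

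In these proteins a long-form transporter carries a pair of membrane domains and a pair of ATP-binding domains in 1 chain, while short-form transporters carry 1 of each and work as dimers. The P-glycoproteins (*pgp-*) and multidrug resistance proteins (*mrp-*) are long-form pumps known for moving drugs, toxins, metals and metabolites out of cells, in nematodes above all in the intestine and excretory system. The *haf-*, *hmt-*, *pmp-* and *wht-* genes code for short-form transporters, many of them in membranes inside the cell. ABCF proteins have no membrane domain and act with ribosomes.

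Totals ran from 40240674 to 52987317 counts per library, and levels are given as TMM-scaled CPM, counts scaled to a common library size and corrected for composition. Cyclo(Pro-Tyr) replicate 2 stood apart, at 51.4 on the first principal component of all tested genes, against 13.9 for Cyclo(Pro-Tyr) replicate 1 and -26.2 and -39.1 for DMSO replicates 1 and 2. Summed epidermal markers (8 genes) were 563 and 247 CPM in Cyclo(Pro-Tyr) against 876 and 1039.5 CPM in DMSO. Summed moulting markers (14 genes) were 1352 and 933 CPM in Cyclo(Pro-Tyr) against 1432 and 1904 CPM in DMSO. Neither list held a gene called by edgeR or DESeq2. At an unadjusted p below 0.05, 4 and 9 of their genes were lower and none higher, where 14.3% of all genes were lower. Without overlap between the groups, 5 epidermal and 9 moulting markers were lower, and 2 and 3 were higher. Those shares over all genes were 30.8% lower and 29.6% higher. The sums for body wall muscle (10871 and 10689.5 CPM against 8236 and 9742 CPM), pharynx and neurons were higher in both Cyclo(Pro-Tyr) libraries than in both DMSO libraries. By single genes, the log2 fold change was above 0 in 5 of 7, 7 of 8 and 5 of 8 of these markers. The share above 0 over all genes was 49.7%. Among germline markers (10 genes) the sums were 225 and 219 CPM against 224 and 244 CPM. Oocyte and yolk markers (10 genes) summed to 40.6 and 43.0 CPM against 47.4 and 51.2 CPM. Of the latter 10, 1 fell by edgeR, *oma-1*, where 1.33% of all genes did. In the intestinal list (7 genes) the sums overlapped, at 2621 and 2803 CPM in Cyclo(Pro-Tyr) and 2778 and 2699 CPM in DMSO. That sum was mostly *ifb-2* (1479.6 and 1707 CPM, against 1498 and 1443 CPM). At an unadjusted p below 0.05 *ges-1* was higher (log2 fold change 0.67) and *act-5* and *spl-1* lower (-0.53 and -0.27). Over all genes 13.0% were higher and 14.3% lower. None of the 7 was called by edgeR. DESeq2 called 1 in each direction, where it called 10.9% of all genes in either direction. Sperm markers summed to 5.48 and 5.12 CPM in Cyclo(Pro-Tyr) and 6.52 and 6.42 CPM in DMSO, with *msp-3* at 0 counts in all 4 libraries. The part of these tissue and moulting differences in the results that follow was not tested. In whole worms, fewer cells of a type and less RNA per cell cannot be told apart.

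The family ran from genes with a few counts to *abcf-2*, at percentile 99.0 of all genes per length. Levels between genes are compared as CPM per kb of annotated exon, averaged over the 4 libraries. The highest was *abcf-2* (CELE_T27E9.7), the worm relative of yeast Arb1, a ribosome assembly factor, at 554 CPM per kb, which was 7.93 times the next gene. That next gene was *haf-9* at 69.9 CPM per kb, followed by *pmp-1*, *abcf-3*, *pgp-14* and *haf-4* at 56.2, 53.9, 53.8 and 50.5 CPM per kb. Read by single libraries, values overlapped between neighbours in this order from *pmp-1* to *haf-4*, but not between *haf-9* and *pmp-1*. Medians by subfamily were 53.9 CPM per kb for *abcf-*, 37.2 for *pmp-*, 22.9 for *haf-*, 10.7 for *mrp-* and 8.02 for *pgp-*. They were 0.494 for *wht-* and 0.149 for *abt-*, where 5 of 9 and 4 of 6 genes lay below 1 CPM per kb. Of the 56 genes, 11 lay below that level in all, and 10 had fewer than 100 counts in at least 1 library, so these genes are measured with little precision.

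**Figure D1:**
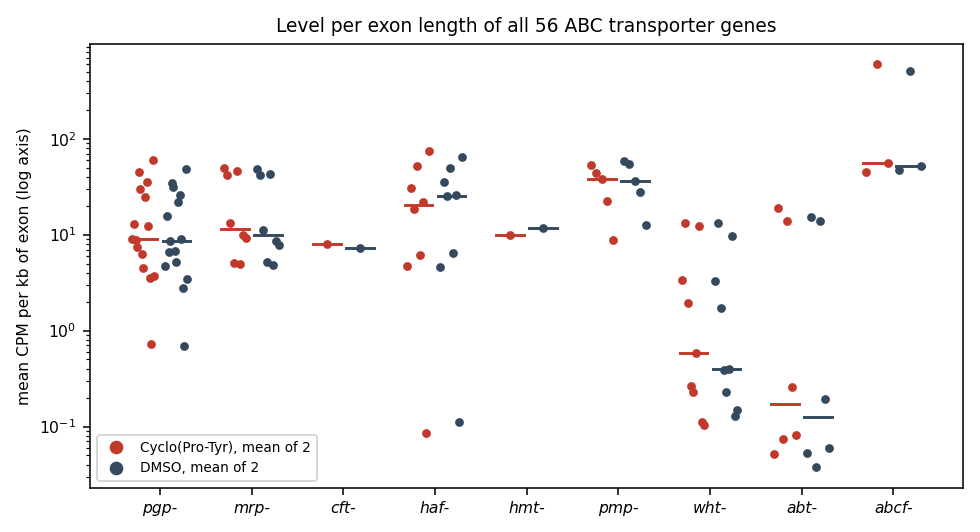
Level of each of the 56 ABC transporter genes as mean TMM-scaled CPM per kb of exon (log axis), by symbol prefix, with Cyclo(Pro-Tyr) points left of DMSO points (mean of 2 libraries each) and bars at the subfamily median. The *abcf-2* gene stands above all others at 600 in Cyclo(Pro-Tyr) and 509 in DMSO, and most *wht-* and *abt-* genes lie below 1.

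A filter on low counts left 52 of the 56 genes for testing. The 4 left out had 2 to 19 counts per library. They were *abt-3* (10 and 19 counts in Cyclo(Pro-Tyr), 8 and 8 in DMSO), *abt-6* (5 and 3, against 4 and 2), *haf-8* (8 and 7, against 10 and 10) and *wht-9* (11 and 5, against 15 and 8).

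By edgeR's quasi-likelihood test with Benjamini-Hochberg adjustment over all tested genes, 1 of the 52 rose and none fell (threshold 0.05). The share called among all 19439 tested genes was 2.05%, and among these 52 it was 1.92%. At an unadjusted p below 0.05 the family held 8 higher and 5 lower genes, 25% of 52, where the share over all genes was 27.3%. The Cyclo(Pro-Tyr) and DMSO libraries did not overlap for 30 of the 52, 17 higher and 13 lower, a share of 57.7% against 60.5% over all genes (29.6% higher, 30.8% lower). The log2 fold change was above 0 in 32 (61.5%) and below 0 in 20, where it was above 0 in 49.7% and below 0 in 50.3% of all genes. The median log2 fold change of the family was 0.05, that of all tested genes -0.0032, and the median size regardless of sign was 0.196 against 0.25. The shares called, past the unadjusted threshold and without overlap lay near those of all genes, while the share above 0 was higher and the median size smaller. The median standard error was also smaller, 0.122 against 0.162. The count above 0 was 28 of 52 with total counts and 34 with upper-quartile scaling. It was 27 of 55 and 32 of 54 without Cyclo(Pro-Tyr) replicates 1 and 2. Without DMSO replicates 1 and 2 it was 27 of 54 and 36 of 54, so the higher share depended on the libraries and scaling. By library left out, 8 genes were called without Cyclo(Pro-Tyr) replicate 1 (*haf-3*, *pgp-1*, *pgp-10*, *pgp-11*, *pgp-4*, *pmp-2*, *pmp-5* and *wht-7*), where 21.8% of all genes were, and 1, *pgp-1*, without Cyclo(Pro-Tyr) replicate 2, where 4.95% were. None was called without DMSO replicate 1 (0.00% of all genes) or DMSO replicate 2 (0.0201%). The *pgp-1* gene was the single ABC gene called with limma-voom or DESeq2 size factors (2.21% of all genes each), upper-quartile scaling (4.33%), total counts (1.11%), no filter (2.04%), the robust option (2.80%) or a replicate block (1.14%).

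The subfamilies differed in where their values lay, and no test was run between them, since their members are not replicates. Medians of log2 fold change were 0.16 for *pgp-* (10 of 15 above 0), 0.086 for *mrp-* (7 of 8), -0.069 for *haf-* (3 of 7) and -0.31 for *pmp-* (1 of 5). They were 0.028 for *wht-* (6 of 8), 0.15 for *abt-* (2 of 4) and 0.12 for *abcf-* (2 of 3). Genes at an unadjusted p below 0.05 numbered 6 of 15 in *pgp-*, all higher, where the share over all genes was 13.0% for higher. In *pmp-* they numbered 3 of 5, all lower, where that share was 14.3% for lower. The summed level of the *pgp-* genes was 2.77 and 2.94 times that of the *pmp-* genes in Cyclo(Pro-Tyr) and 2.11 and 2.18 times in DMSO. This ratio sets the subfamily with the highest of these medians over that with the lowest, so its lack of overlap gives no separate support. Among all single genes, 60.5% did not overlap between the groups. Without Cyclo(Pro-Tyr) replicate 2 the medians were 0.32 for *pgp-* and -0.21 for *pmp-*, and without DMSO replicate 2 the *pgp-* median was 0.33. Without Cyclo(Pro-Tyr) replicate 1 the *abt-* median was -0.125, the *mrp-* median -0.00090 and the family median -0.0034, and without DMSO replicate 1 the *wht-* median was -0.0027, all with the sign turned. Scaling by total counts also turned the *wht-* median, to -0.0068, and put the family median at 0.014.

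**Figure D2:**
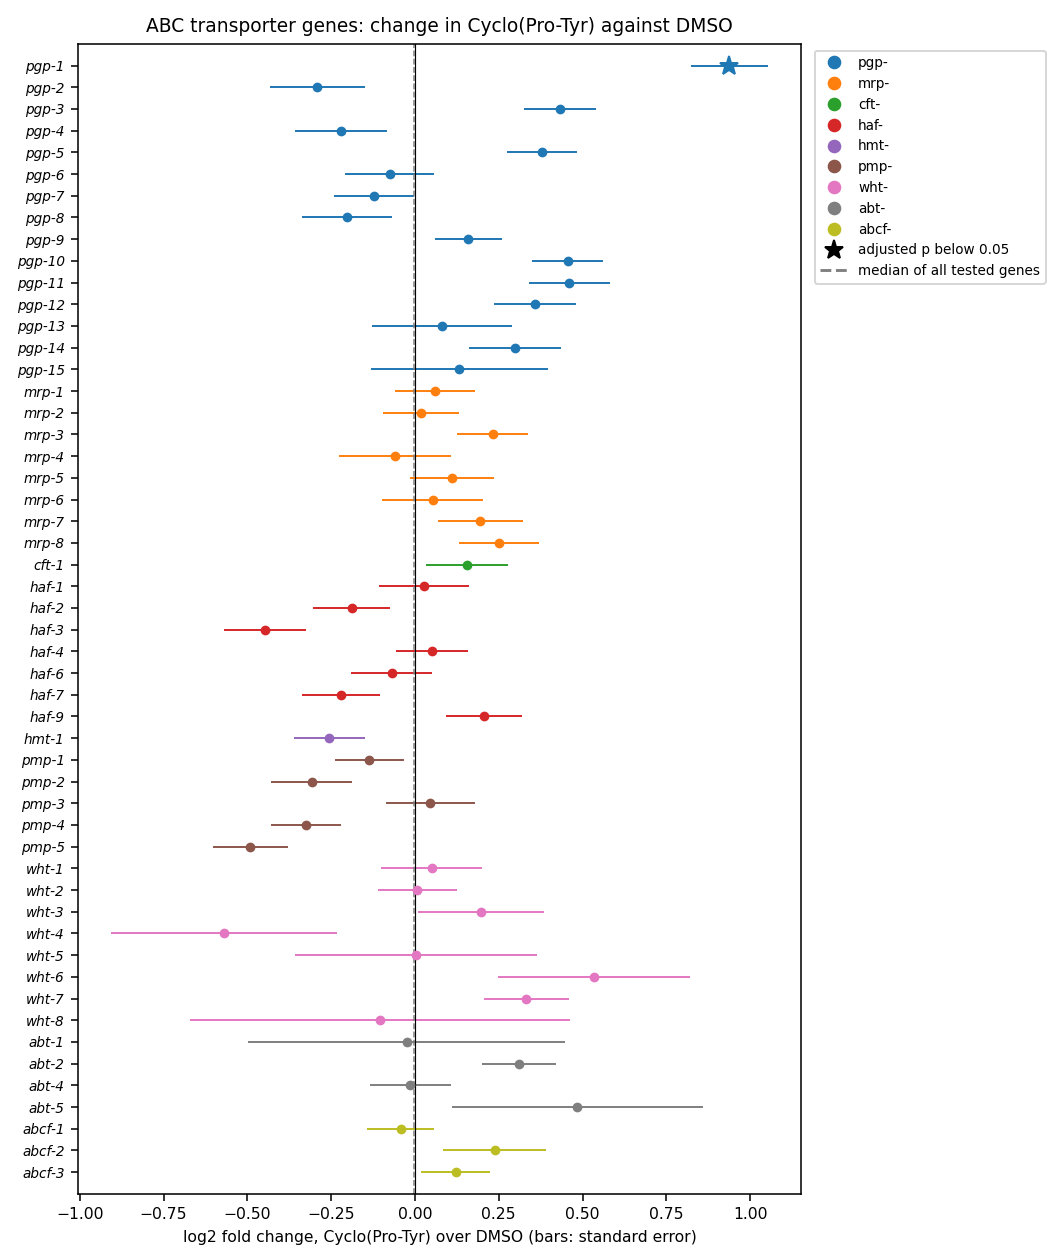
Log2 fold change of Cyclo(Pro-Tyr) over DMSO (x axis, with standard error) for the 52 tested ABC transporter genes by edgeR, coloured by symbol prefix, with the median of all tested genes dashed. The *pgp-1* gene, at 0.94, is the single gene past the threshold, and 4 of the 5 *pmp-* genes lie below 0.

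The gene that rose was *pgp-1* (CELE_K08E7.9), a P-glycoprotein of the apical membrane of the intestine that takes part in resistance to toxins and metals. It had 35.7 and 38.8 CPM in Cyclo(Pro-Tyr) (1901 and 1515 counts) and 20.3 and 18.6 CPM in DMSO (1041 and 805 counts). Both treated libraries lay well above both DMSO libraries, and the gap was larger than the difference between replicates of either group. Its mean was 37.2 ± 2.20 CPM in Cyclo(Pro-Tyr) and 19.4 ± 1.17 CPM in DMSO (SD, n = 2 each), a 1.92-fold increase (log2 fold change 0.94, standard error 0.11, edgeR adjusted p 0.0332). Its level per length, 6.93 CPM per kb, was in the middle of the genome, above 50.9% of all genes. No exon of *pgp-1* overlapped another gene on the opposite strand. Leaving out single libraries moved its log2 fold change between 0.88 and 1.004. Its call was lost in edgeR without DMSO replicate 1 (adjusted p 0.219), without DMSO replicate 2 (0.339) and with genes required to reach 5 CPM (0.0671). Over all 13 alternatives its adjusted p ran from 5.31e-07 to 0.339, and leaving out Cyclo(Pro-Tyr) replicate 2 gave 1.24e-04.

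Other P-glycoproteins had smaller positive values, none past the threshold by edgeR. The *pgp-3* gene (CELE_ZK455.7), a pump of intestine and excretory cell that protects worms from colchicine and chloroquine, had 35.2 and 33.8 CPM in Cyclo(Pro-Tyr) against 26.2 and 24.9 CPM in DMSO. The groups did not overlap, and its log2 fold change was 0.43 (standard error 0.11, edgeR adjusted p 0.0676). A similar size was seen in *pgp-10* (147 and 156 CPM against 107 and 115 CPM, log2 fold change 0.46, edgeR adjusted p 0.0618). In *pgp-11* the libraries held 44.9 and 54.2 CPM in Cyclo(Pro-Tyr) and 36.4 and 35.6 CPM in DMSO (0.46, edgeR adjusted p 0.0731). For *pgp-5*, whose loss makes worms sensitive to heavy metals and bacterial infection, they held 177 and 183 CPM in Cyclo(Pro-Tyr) and 135 and 141 CPM in DMSO (0.38, edgeR adjusted p 0.0776). These 4 genes, together with *pgp-1*, were called higher by DESeq2's Wald test, which called 6 of the 48 ABC genes it gave an adjusted p (12.5%) and 10.9% of all such genes. The *pgp-12* gene, whose promoter is used as a marker of the excretory cell, had 15.1 and 14.5 CPM against 11.7 and 11.3 CPM (0.36, edgeR adjusted p 0.118). Among 7 excretory cell markers 1 rose and none fell by edgeR, where 0.715% of all genes rose. It was the chloride channel gene *clh-3*, with 20.4 and 21.9 CPM in Cyclo(Pro-Tyr) and 11.3 and 12.6 CPM in DMSO (edgeR adjusted p 0.0355). The sum of those markers overlapped between groups, at 543 and 530.5 CPM in Cyclo(Pro-Tyr) and 514 and 546 CPM in DMSO.

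The most abundant P-glycoprotein per length was *pgp-14* (CELE_F22E10.3), which builds the lipid permeability barrier of the pharyngeal cuticle. It had 281 and 229 CPM in Cyclo(Pro-Tyr) and 195 and 220.1 CPM in DMSO, giving a log2 fold change of 0.30 (standard error 0.14, edgeR adjusted p 0.206), which was 0.14 when Cyclo(Pro-Tyr) replicate 1 was left out and 0.44 when replicate 2 of that group was. The gap between the treated replicates was larger than that between the lower treated and the higher DMSO library. Pharyngeal markers (8 genes) summed to 5547 and 5999.9 CPM in Cyclo(Pro-Tyr) and 4276 and 4935 CPM in DMSO. None was called by edgeR. At an unadjusted p below 0.05, 3 were higher and none lower, where 13.0% of all genes were higher. DESeq2 called 1 higher, where it called 10.9% of all genes in either direction. The lower P-glycoproteins were led by *pgp-2* (CELE_C34G6.4), which is needed for lysosome-related gut granules and intestinal fat storage. It had 60.4 and 55.4 CPM in Cyclo(Pro-Tyr) and 61.6 and 80.2 CPM in DMSO, with a log2 fold change of -0.29 (edgeR adjusted p 0.227), which was -0.091 without DMSO replicate 2 and -0.47 without DMSO replicate 1. The *pgp-9* gene stood at 0.16, and *pgp-13* and the pseudogene *pgp-15* at 0.080 and 0.13, with overlapping groups for *pgp-13* and *pgp-15*.

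**Figure D3:**
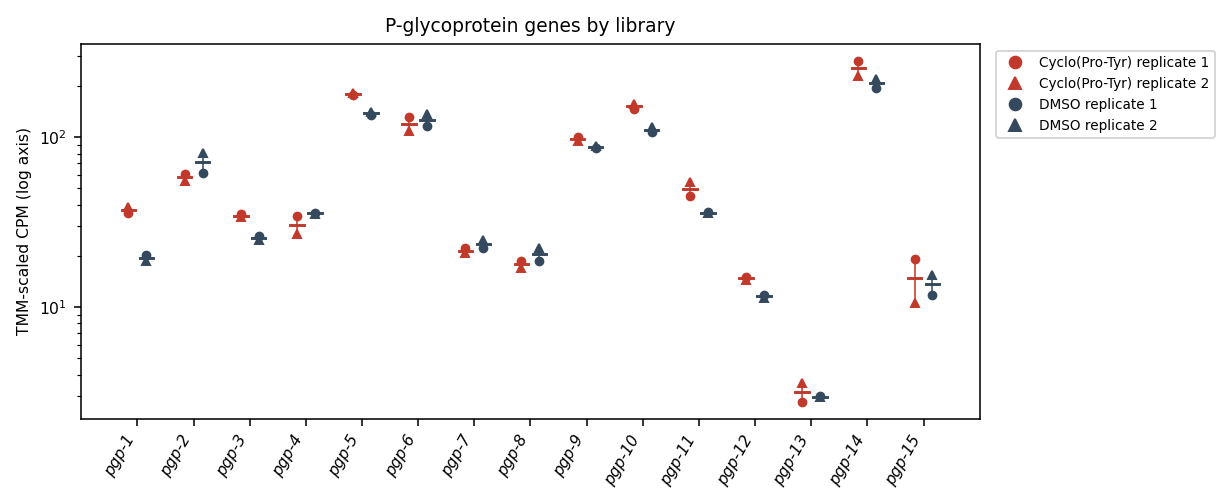
TMM-scaled CPM (log axis) of the 15 P-glycoprotein genes in each library, Cyclo(Pro-Tyr) left of DMSO in each pair, with short bars at the group means and circles and triangles for replicates 1 and 2. The groups lie farthest apart for *pgp-1*, at 35.7 and 38.8 against 20.3 and 18.6 CPM, while *pgp-15* has wide replicates.

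Several of these genes lie next to each other, and the ratios of some neighbours did not overlap between the groups while others did. Among all genes, the levels of 60.5% did not overlap, and no such share was computed for ratios. Ratios of counts within a library need no scaling between libraries. The neighbours *pgp-3* and *pgp-4* were at a ratio of 1.02 and 1.26 in Cyclo(Pro-Tyr) and 0.734 and 0.702 in DMSO. The *pgp-4* gene itself had 34.4 and 26.7 CPM against 35.8 and 35.5 CPM (log2 fold change -0.22, edgeR adjusted p 0.334), so the pair had values on opposite sides of 0. In the cluster of *pgp-5*, *pgp-8*, *pgp-7* and *pgp-6*, the ratio of *pgp-5* to its neighbour *pgp-8* was 9.51 and 10.8 in Cyclo(Pro-Tyr) and 7.26 and 6.32 in DMSO. The ratio of *pgp-8* to *pgp-7* was slightly lower, at 0.836 and 0.820 in Cyclo(Pro-Tyr) and 0.842 and 0.906 in DMSO. The ratio of *pgp-6* to *pgp-7* overlapped, at 5.85 and 5.28 in Cyclo(Pro-Tyr) and 5.26 and 5.51 in DMSO. The log2 fold changes of *pgp-6*, *pgp-7* and *pgp-8* were -0.075, -0.12 and -0.203, with edgeR adjusted p from 0.364 to 0.747. Within the row of *pgp-12* to *pgp-15*, the ratio of *pgp-12* to *pgp-13* was 5.46 and 4.07 in Cyclo(Pro-Tyr) and 3.94 and 3.84 in DMSO. The ratios of *pgp-14* to *pgp-13* and of *pgp-15* to *pgp-14* overlapped. Outside the *pgp-* genes, the ratio of the neighbours *pmp-1* and *pmp-2* was 1.14 and 1.22 in Cyclo(Pro-Tyr) and 1.12 and 0.978 in DMSO. An exact two-sided permutation test of 2 libraries against 2 cannot go below 0.333, so these ratios are given without a test. How reads divide between similar neighbouring copies was not analysed here, which leaves single counts within these clusters uncertain.

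**Figure D4:**
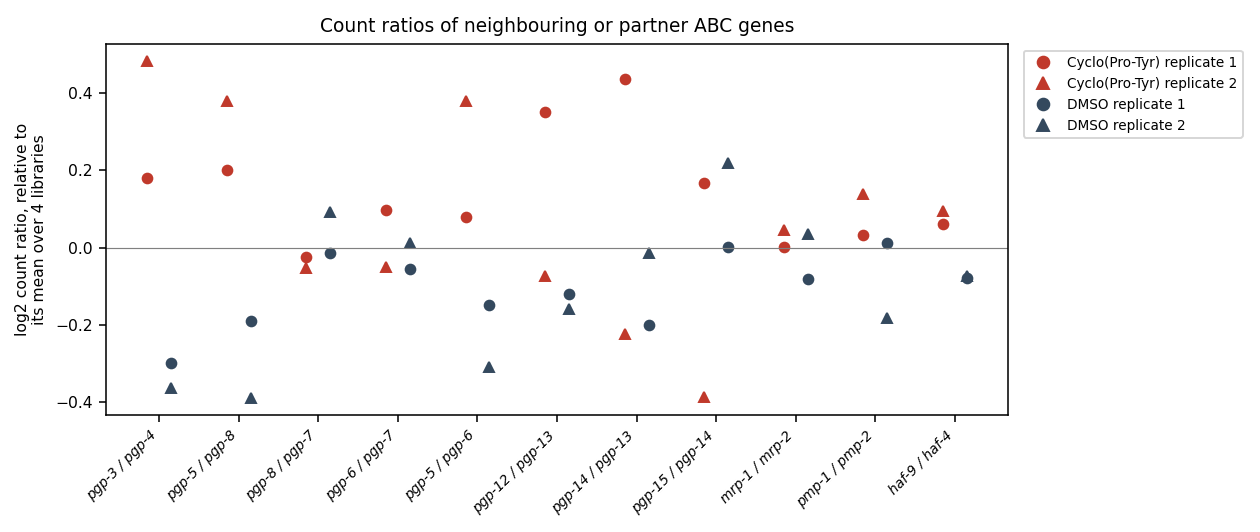
Log2 ratio of counts of 2 ABC genes within each library, relative to its mean over the 4 libraries, Cyclo(Pro-Tyr) left of DMSO, for neighbouring genes and, at the right, for the partners *haf-9* and *haf-4*. The ratios of *pgp-3* to *pgp-4* and *pgp-5* to *pgp-8* are higher in both Cyclo(Pro-Tyr) libraries, and that of *mrp-1* to *mrp-2* overlaps.

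The multidrug resistance proteins showed values close to 0, with no gene past the threshold by edgeR, none at an unadjusted p below 0.05, and none called by DESeq2 or limma-voom. The most abundant per length was *mrp-1* (CELE_F57C12.5), which protects worms from cadmium and arsenite. It had 292 and 268 CPM in Cyclo(Pro-Tyr) and 254 and 283 CPM in DMSO, overlapping groups, giving a log2 fold change of 0.060 (standard error 0.12, edgeR adjusted p 0.782). Its neighbour *mrp-2* had 211 and 188 CPM against 194 and 199.997 CPM (0.018). For *mrp-5*, the heme exporter of the worm intestine, the values were 233 and 201 CPM in Cyclo(Pro-Tyr) and 189 and 213 CPM in DMSO (0.11, edgeR adjusted p 0.605). The smallest p among the higher genes was that of *mrp-3*, with 61.2 and 60.3 CPM against 48.8 and 54.6 CPM (0.23, edgeR adjusted p 0.206). The *mrp-4* gene, alone below 0 in this subfamily, had 27.9 and 22.8 CPM against 22.7 and 30.2 CPM (-0.060). The remaining genes, *mrp-6*, *mrp-7* and *mrp-8*, lay between 0.053 and 0.25. The *cft-1* gene (CELE_C18C4.2), related to the human chloride channel CFTR, had 28.6 and 33.6 CPM in Cyclo(Pro-Tyr) and 28.9 and 26.9 CPM in DMSO (0.15, edgeR adjusted p 0.447). Its exons overlap *ugt-48* on the opposite strand by 121 bases, and since strand use in counting is not given in the sources used here, its counts are uncertain.

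Of the 5 *pmp-* genes, relatives of the peroxisomal transporters that bring fatty acids into peroxisomes, 4 had lower values with groups that did not overlap, where 30.8% of all genes did so in that direction. None was past the threshold by edgeR, 3 had an unadjusted p below 0.05, and DESeq2 called *pmp-5* lower. The *pmp-5* gene (CELE_T10H9.5) had 21.8 and 20.0 CPM in Cyclo(Pro-Tyr) and 29.9 and 28.9 CPM in DMSO. Its log2 fold change was -0.49 (standard error 0.11, edgeR adjusted p 0.0595). For *pmp-4* (CELE_T02D1.5) the values were 54.6 and 49.7 CPM in Cyclo(Pro-Tyr) and 65.1 and 65.5 CPM in DMSO (-0.32, standard error 0.10, edgeR adjusted p 0.105). The neighbours *pmp-1* and *pmp-2* had 115 and 108 CPM against 123 and 122 CPM (-0.14), and 102 and 88.3 CPM against 110.2 and 125 CPM (-0.31, edgeR adjusted p 0.152). The exception was *pmp-3* (CELE_C54G10.3), often used as a reference gene in worm quantitative PCR, with 112 and 90.4 CPM in Cyclo(Pro-Tyr) and 92.3 and 104 CPM in DMSO (0.046, edgeR adjusted p 0.851). Its groups overlapped, and Cyclo(Pro-Tyr) replicate 1 was the highest and replicate 2 the lowest of the 4 libraries.

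A list of 17 peroxisomal genes, enzymes of fatty acid and ascaroside beta-oxidation and peroxins, was read beside them. Of these, 16 had a log2 fold change below 0, with a list median of -0.42, and 11 were lower and none higher at an unadjusted p below 0.05, where 14.3% of all genes were lower. At the edgeR threshold 1 fell, where 1.33% of all genes did. It was *ech-9*, an enoyl-CoA hydratase family gene, with 26.5 and 20.0 CPM in Cyclo(Pro-Tyr) and 48.2 and 41.2 CPM in DMSO (-0.94, standard error 0.16, edgeR adjusted p 0.0416). The thiolase gene *daf-22*, which makes the last step of ascaroside side-chain shortening, had 213 and 166 CPM against 297 and 306 CPM (-0.67, edgeR adjusted p 0.0544). The hydratase gene *maoc-1*, also of that pathway, had 220.4 and 206 CPM against 306 and 313 CPM (-0.54, edgeR adjusted p 0.0537). DESeq2 called 6 of the 17 lower and none higher, where it called 10.9% of all genes in either direction. The peroxin genes all lay above the list median of -0.42. The log2 fold changes of *prx-3*, *prx-5* and *prx-11* were -0.099, 0.061 and -0.044. Those of *prx-12*, *prx-13* and *prx-19* were -0.27, -0.24 and -0.28. The enzyme genes *acs-7* and *acox-1.3* also lay above that median, at -0.29 and -0.36.

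**Figure D5:**
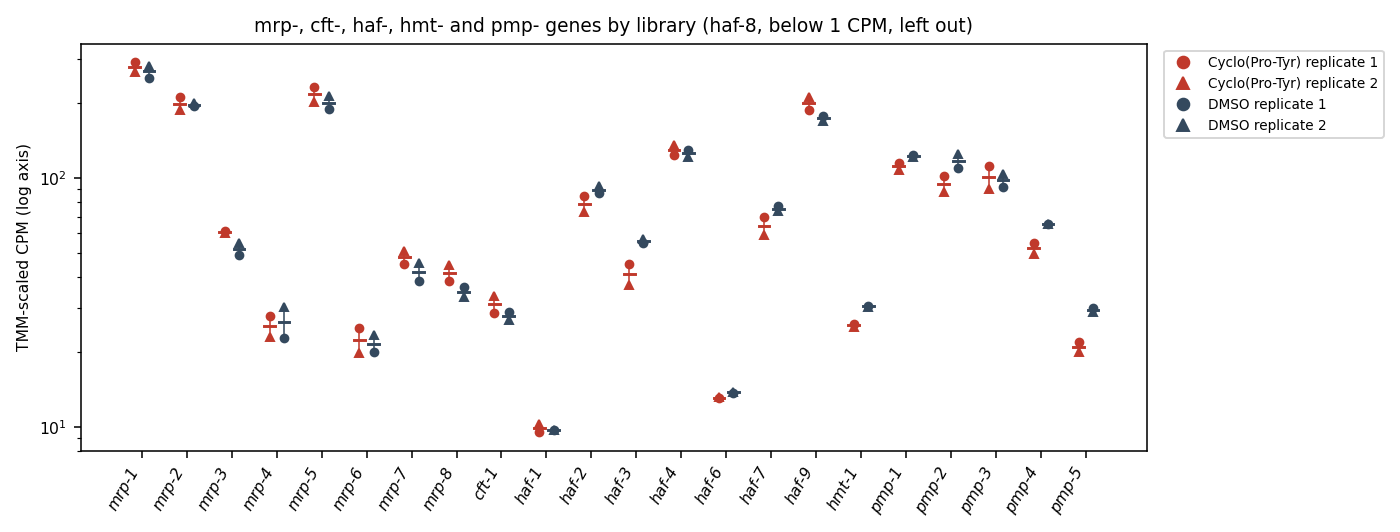
TMM-scaled CPM (log axis) of the *mrp-*, *cft-*, *haf-*, *hmt-* and *pmp-* genes in each library, Cyclo(Pro-Tyr) left of DMSO in each pair, with short bars at the group means and *haf-8*, below 1 CPM, left out. The *haf-3*, *hmt-1*, *pmp-4* and *pmp-5* libraries of Cyclo(Pro-Tyr) lie below those of DMSO, and most *mrp-* genes overlap.

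Among the *haf-* genes none was past the threshold by edgeR, DESeq2 or limma-voom. An unadjusted p below 0.05 was seen in 1 of 7, where the share over all genes was 27.3%. That gene, *haf-3* (CELE_F57A10.3), had 44.99 and 37.1 CPM in Cyclo(Pro-Tyr) and 55.0 and 56.9 CPM in DMSO, giving a log2 fold change of -0.45 (standard error 0.12, edgeR adjusted p 0.0779). The *haf-4* and *haf-9* products pair with each other in the membrane of intestinal gut granules, which are lysosome-related. For *haf-4* (CELE_W04C9.1) the values were 124 and 136 CPM in Cyclo(Pro-Tyr) and 129 and 122 CPM in DMSO (0.050). For *haf-9* (CELE_ZK484.2) they were 189 and 212 CPM against 178 and 169 CPM (0.21, standard error 0.11, edgeR adjusted p 0.280). The ratio of *haf-9* to *haf-4* counts was 1.52 and 1.55 in Cyclo(Pro-Tyr) and 1.38 and 1.38 in DMSO. It did not overlap between the groups. The levels of 60.5% of all genes did not either, but no such share was computed for ratios. The *haf-6* gene, required for efficient RNA interference, had 13.0 and 13.2 CPM against 13.7 and 13.8 CPM (-0.069, edgeR adjusted p 0.745). In *haf-1*, a mitochondrial peptide exporter of the mitochondrial unfolded protein response, the log2 fold change was 0.027, and in *haf-2* and *haf-7* it was -0.19 and -0.22.

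A list of 12 gut granule genes, which act in the organelle of *haf-4*, *haf-9* and *pgp-2*, had 1 gene that fell and none that rose by edgeR, where 1.33% of all genes fell. At an unadjusted p below 0.05 it held 2 higher and 1 lower, 25% of 12, where the share over all genes was 27.3%. DESeq2 called 1 higher and 1 lower, where it called 10.9% of all genes in either direction. The gene that fell was *aps-3*, the small subunit of the AP-3 adaptor, with 4.39 and 2.77 CPM in Cyclo(Pro-Tyr) and 9.86 and 9.54 CPM in DMSO (-1.42, standard error 0.22, edgeR adjusted p 0.0355). The list's other AP-3 subunit genes, *apb-3*, *apd-3* and *apm-3*, stood at -0.18, -0.15 and -0.12, and the list median was -0.068. A list of 20 RNA interference genes had a median of 0.019 and no called gene by edgeR. At an unadjusted p below 0.05, 1 was higher and 2 were lower, a share of 15% against 27.3% over all genes. DESeq2 called 1 lower, 5% of the list, where it called 10.9% of all genes. The smallest p of this list was that of *rde-3*, at 5.29 and 3.77 CPM in Cyclo(Pro-Tyr) and 7.86 and 7.88 CPM in DMSO (-0.79, edgeR adjusted p 0.0674).

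The *hmt-1* gene (CELE_W09D6.6), a short-form transporter that confers tolerance to cadmium with phytochelatins, had 25.9 and 25.3 CPM in Cyclo(Pro-Tyr) and 30.7 and 30.4 CPM in DMSO. Replicates were close in both groups, and the log2 fold change was -0.26 (standard error 0.11, edgeR adjusted p 0.168). Its exons overlap W09D6.5 on the opposite strand by 70.0 bases. Of 14 heavy metal response genes, 7 had a log2 fold change above 0 and 7 below, and none was called by edgeR. At an unadjusted p below 0.05, 1 was higher and 4 were lower, where 13.0% and 14.3% of all genes were. DESeq2 called 3 lower, where it called 10.9% of all genes in either direction. The higher gene was *mtl-2*, with 23.8 and 31.5 CPM in Cyclo(Pro-Tyr) and 21.5 and 15.3 CPM in DMSO (0.58, edgeR adjusted p 0.111). The phytochelatin synthase gene *pcs-1* had 29.3 and 24.9 CPM against 35.7 and 31.0 CPM (-0.30, edgeR adjusted p 0.188). The smallest p of the list was that of *cdr-2*, a cadmium-responsive family gene, with 65.5 and 59.5 CPM against 86.5 and 86.7 CPM (-0.47, edgeR adjusted p 0.0579).

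The *wht-* genes, relatives of the fly eye pigment transporter White, and the *abt-* genes held no called gene by edgeR, DESeq2 or limma-voom. An unadjusted p below 0.05 was seen in 1 of 8 tested *wht-* and 1 of 4 tested *abt-* genes, where the share over all genes was 27.3%. The higher-expressed *wht-2* (CELE_C10C6.5) had 24.0 and 27.5 CPM in Cyclo(Pro-Tyr) and 25.9 and 25.3 CPM in DMSO (0.0062, standard error 0.12, edgeR adjusted p 0.977). For *wht-7* (CELE_Y42G9A.6) the values were 24.5 and 29.0 CPM against 20.4 and 22.0 CPM (0.33, standard error 0.13, edgeR adjusted p 0.144). The *wht-4* gene had the lowest log2 fold change of the family, -0.57, on only 28 and 21 counts in Cyclo(Pro-Tyr) and 46 and 29 in DMSO, with a standard error of 0.34. The *wht-6* gene, at 60 and 43 counts against 43 and 30, had 0.53 with a standard error of 0.29. Neither passed the test (edgeR adjusted p 0.310 for *wht-4* and 0.264 for *wht-6*), and the groups did not overlap for either. The *wht-1*, *wht-3*, *wht-5* and *wht-8* genes lay between -0.105 and 0.197.

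In the *abt-* subfamily, *abt-2* (CELE_F12B6.1) had 119.9 and 132 CPM in Cyclo(Pro-Tyr) and 96.5 and 106 CPM in DMSO, groups that did not overlap (0.31, standard error 0.11, edgeR adjusted p 0.127). Its relative *abt-4* (CELE_Y39D8C.1) had 82.2 and 71.6 CPM against 72.3 and 83.1 CPM (-0.014). The *abt-1* gene had only 14 and 9 counts in Cyclo(Pro-Tyr) and 14 and 10 in DMSO, and *abt-5* had 90 and 33 against 42 and 46. A further 5 ABC genes carry other symbols, and none was called by edgeR, DESeq2 or limma-voom or had an unadjusted p below 0.05. Among them *ced-7*, which acts in the engulfment of dying cells, had 203 and 196 CPM against 156 and 179.5 CPM (0.25, edgeR adjusted p 0.207). The ribosome recycling factor gene *abce-1* had 65.3 and 59.9 CPM against 70.3 and 74.0 CPM (-0.204). The *abch-1*, *abcx-1* and *abtm-1* genes stood at 0.30, 0.105 and -0.090.

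The 3 *abcf-* genes, which act in translation and not in transport, were not past the threshold by edgeR, DESeq2 or limma-voom, and none had an unadjusted p below 0.05. The *abcf-2* gene had 1391 and 1507 CPM in Cyclo(Pro-Tyr) and 1225 and 1233 CPM in DMSO, giving a log2 fold change of 0.24 (standard error 0.15, edgeR adjusted p 0.352). Both treated libraries were higher, and the treated replicates differed by more than the DMSO replicates. For *abcf-1* (CELE_F18E2.2), related to a human translation initiation regulator, the values were 92.3 and 91.8 CPM against 92.7 and 96.8 CPM (-0.042, standard error 0.10, edgeR adjusted p 0.818). The *abcf-3* gene, whose product works with the Gcn2 activator GCN-1, had 133 and 141.9 CPM against 127 and 126 CPM (0.12). In a list of 9 genes of the integrated stress response and its translation factors, none was called by edgeR, DESeq2 or limma-voom. At an unadjusted p below 0.05, 1 was higher and 1 lower, a share of 22.2% against 27.3% over all genes. The list median was -0.018. The smallest p of this list was that of the kinase gene *pek-1*, with 150.4 and 158 CPM in Cyclo(Pro-Tyr) and 119.9 and 121 CPM in DMSO (0.36, edgeR adjusted p 0.0853).

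A list of 15 regulators of xenobiotic and stress response had 2 genes that rose and none that fell by edgeR, where 0.715% of all genes rose. The first was *daf-16*, the FOXO factor of insulin signalling, with 232 and 258 CPM in Cyclo(Pro-Tyr) and 141.9 and 150.1 CPM in DMSO (0.75, standard error 0.11, edgeR adjusted p 0.0355). The other was *nhr-48*, a nuclear receptor related to *nhr-8* and *daf-12*, with 99.7 and 101 CPM against 67.8 and 72.0 CPM (0.52, standard error 0.10, edgeR adjusted p 0.0491). For *nhr-8*, a nuclear receptor needed for resistance to colchicine and chloroquine, the values were 65.2 and 68.4 CPM in Cyclo(Pro-Tyr) and 59.4 and 57.9 CPM in DMSO (0.19, edgeR adjusted p 0.265). The list median was 0.24, with 12 of 15 genes above 0, where 49.7% of all genes were. At an unadjusted p below 0.05, 6 were higher and 1 lower, where 13.0% and 14.3% of all genes were. DESeq2 called 5 higher and 1 lower, where it called 10.9% of all genes in either direction. In the other direction *cebp-1*, a bZIP stress response factor, had 193 and 163 CPM in Cyclo(Pro-Tyr) and 248 and 259 CPM in DMSO (-0.51, edgeR adjusted p 0.0659).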

How the data were processed

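The authors deposited raw counts of reads per gene, whole numbers with 1 column per library and no normalisation. Per the submitters' processing notes, Bowtie2 and SAMtools were used. The sources used here do not give the counting tool, the build, the annotation or whether strand was used, so no coordinates are printed. Per the labels' protocols, libraries came from a stranded total RNA kit and were read single-end. Groups and replicate numbers followed the titles, although a treatment label of Cyclo(Pro-Tyr) replicate 2 repeats the words for replicate 1.

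Symbols came from a RefSeq table of WBcel235, which matched 21890 of 21895 rows and all 56 ABC genes, and the WormBase name table held 52 of these. Exon lengths, overlaps and neighbours came from WBcel235 annotation (Ensembl for exons, RefSeq for neighbours). Of the 56 genes, 18 have exons that overlap a gene on the opposite strand, so the limit given for *cft-1* applies to them too. The overlaps were 357 bases in *haf-8*, 334 in *pgp-15*, 225 in *abt-3*, 129 in *wht-1* and 110 in *abcf-3*. Others were smaller, down to 5 bases in *pmp-3*. No sequences were analysed here.

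The test was edgeR 4.0.16 under R 4.3.3 (quasi-likelihood, filterByExpr, TMM, treatment as the only term), with Benjamini-Hochberg adjustment over 19439 genes at 0.05. Standard errors are the log2 fold change divided by the root of F. The fit was tested on simulated counts. The genes, lists and tests were chosen with earlier results of these data known. Values per library are given for called genes, for the smallest p in each direction and the highest level of each subfamily, and for genes of known role. Other ABC genes, and list genes beyond those called or with the smallest p, were added after their values were seen. In the lists, 179 of 183 entries matched by symbol. DESeq2 1.42.0, limma-voom (limma 3.58.1), 3 other scalings, 2 other filters, a robust fit, a replicate block and fits without each library were alternatives. Figures were drawn with matplotlib 3.10.9. Counts of 3, the limit a count of 0 allows, equalled 0.0563 to 0.0768 CPM, counting error only.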

Additional observations from a re-analysis of the deposited data

How the results depend on the processing

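The count of all genes called, 398, was 841 with upper-quartile scaling, 215 with total counts, 1789 with DESeq2's Wald test, 0 with genes required to reach 5 CPM in 2 libraries (3736 at an unadjusted p below 0.05) and 0 to 4296 with 1 library left out. The 1 ABC gene called became 0 with the 5 CPM filter, 6 with DESeq2 and 0 to 8 with 1 library left out. The 4 called genes of the related lists became 9 with upper-quartile scaling, 0 with the 5 CPM filter, 18 with DESeq2 and 0 to 25 with 1 library left out. Replicate numbers are shared between the groups, and the labels state no pairing. Over all tested genes the replicate differences of the groups had a correlation of -0.20. That value rests on a single difference per group, so it cannot decide whether the numbers pair the libraries. With a replicate block 221 genes, 1 ABC gene and 2 list genes were called. With the numbers crossed, an alternative chosen after seeing the data, 4581 genes, 12 ABC genes and 30 list genes were called. The *pgp-* median of 0.16 was 0.22 with the 5 CPM filter, which removed *pgp-13*, while the values of the other *pgp-* genes were slightly lower. The *haf-* median of -0.069 was -0.040 with upper-quartile scaling, -0.10 with total counts and -0.079 with the 5 CPM filter. With total counts the family median was 0.014 and the *wht-* median -0.0068. The *hmt-1* value of -0.26 was -0.23 with upper-quartile scaling and -0.29 with total counts. With 1 library left out, medians ran from -0.0034 to 0.12 for the family, 0.14 to 0.33 for *pgp-*, -0.00090 to 0.18 for *mrp-*, 0.037 to 0.27 for *cft-1*, -0.076 to -0.059 for *haf-*, -0.27 to -0.23 for *hmt-*, -0.39 to -0.21 for *pmp-*, -0.0027 to 0.14 for *wht-*, -0.12 to 0.23 for *abt-* and 0.079 to 0.17 for *abcf-*. The causes of these changes were otherwise not tested. A group left with 1 library is assumed to vary like the other. The 10 ABC genes with fewer than 100 counts in some library are limited by depth.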
